A study of Mus musculus with 8 samples.

Results

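The transcripts described here were read by array probes that carry a genome position in place of a gene name. Such a probe has a name like chr9:121845920-121858120 with a strand letter, F or R, and the interval is the region that the probe stands for, on mouse build mm9. Of the 55681 probes on the array that were not controls, 16194 were named in this way. The 736 probes of chromosome 11, the 64 in 1 stretch of chromosome 12 (chr12:110842149-110988678) and the 13 with no strand letter were set aside, which left 15381 probes in 3396 regions. A probe was kept where the 2 arrays of any 1 of the 4 groups both gave a signal well above background, and 6250 of the 15381 were kept, in 2345 regions on 19 chromosomes. The other 9131 probes passed in no group and have no test. Probes of this class are called lincRNA probes here as a working name. The files give no transcript or gene for them, so their noncoding status could not be checked, and where a region lies relative to genes is not given because no mm9 annotation was used here.

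Long intergenic noncoding RNAs (lincRNAs) are transcripts made between protein-coding genes and without a long open reading frame. They are known for low abundance and for expression limited to few tissues or stages, and the nervous system is rich in them. Some act near their own locus on neighbouring genes, others act elsewhere in the cell, and for most no function is known. Catalogues drawn from histone marks of active promoters and transcribed bodies show that a region is transcribed but not from which strand, and arrays can therefore carry probes for both strands of a region. No probe sequence was used here, so regions are identified by their coordinates.

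Motor neuron cultures were made from a male mouse embryonic stem cell line with an Hb9-GFP reporter, in which green fluorescent protein marks cells that switch on the motor neuron gene Hb9. All 4 groups were treated alike: retinoic acid, which gives cells a spinal identity, and Sonic hedgehog, which directs them to a ventral fate, were given from day 2, embryoid bodies were dissociated on day 5, and the survival factor GDNF was present afterwards. Control cells and cells with a Litchi knockout were each sampled on day 7 and on day 9, which gives 4 groups with 2 arrays each and 8 arrays in all. No probe carried the name Litchi, and so these arrays do not show whether its own transcript was lost. Whether the 2 replicates of a group were separate cultures, and whether the knockout is 1 clone, is not stated in the labels. P-values therefore rest on the spread among these arrays, part or all of which may be technical. The labels name no sorting step, and in a bulk culture fewer cells of a type and less RNA per cell cannot be told apart.

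The brightness of an array, as the 75th percentile of its processed signal, ran from 649 to 1691 intensity units, and the 4 arrays of replicate 1 were the brighter ones. Between 35.4% and 53.2% of the position-named probes were well above background on an array, against 55.9% to 67.9% of all spots. All 6 motor neuron markers measured (Isl1, Lhx3, Chat, Slc18a3, Slc5a7 and Prph) were well above background on all 8 arrays. Of 8 interferon response genes, 7 were called higher in the knockout over both days, and 0 on day 7 or day 9 alone. A call over both days, here and below, is a limma adjusted p under 0.05 for the mean of the knockout effects on the 2 days. Of 5 fibroblast or mesoderm genes 4 were higher, and of 4 motor neuron progenitor genes 3 were higher. Lower in the knockout over both days were 4 of 4 trophoblast genes measured, 3 of 5 pluripotent cell genes, 3 of 5 neuron genes and 4 of 6 motor neuron genes, while 1 of the 6, the motor neuron factor Lhx3, was higher. The summed level of the trophoblast genes lay between -0.80 and 0.60 on the control arrays and between -4.30 and -3.51 on the knockout arrays (log2, relative to the array's 75th percentile), and that of the interferon genes between 4.15 and 8.59 in control and 7.03 and 8.72 in the knockout. The part of these other transcripts in the results on lincRNA probes was not tested.

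The median level of the kept lincRNA probes, as log2 signal minus the 75th percentile of the same array (the relative level below), was -3.41, with quartiles at -4.55 and -1.76, against a median of -0.37 for the 26939 other kept probes. The lowest level that counted as well above background differed between arrays, from -6.34 to -4.77, so a dim probe could pass on the brighter arrays and miss on the others. Below, relative levels are compared between arrays for the same probe, and medians over sets of probes are descriptions with no test. Of 118 called changes of named probes, 99 were smaller by over 1.5 times after normexp background correction, with a median ratio of 2.95. That correction was run with an offset of 50 intensity units added to each spot, which by itself shrinks the log2 changes of dim probes. How much of the difference came from the background estimate was not tested.

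The rule itself acts on signal, so the levels of the sets it makes only describe where it divided the probes. The 4563 probes that passed in all 4 groups were well above background on all 8 arrays and had a median relative level of -2.67, while the 677 that passed in 1 group had a median of -5.36. Just outside the rule lay 3200 probes that were well above background on 1 or more arrays but on both arrays of no group, with a median of -6.41. The other 5931 were not well above background on any array, with a median of -7.64. Both arrays were above background for 5209 lincRNA probes in control cells and 5506 in knockout cells on day 7, and for 5290 and 5456 on day 9. Of the probes that passed in 1 group only, 150 passed in control and 218 in knockout cells on day 7, and 98 in control and 211 in knockout cells on day 9. These counts were not made over all probes of the array. Each knockout array was also brighter than the control array of the same day and number. Of all spots, 67.9% and 55.9% were well above background in control and 65.8% and 57.7% in the knockout on day 7. On day 9 it was 61.3% and 57.2% against 64.6% and 57.4%. The counts are therefore descriptions.

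Detection that followed genotype or day strictly was rare. Of all kept probes on the array, 6 were well above background on every knockout array and on no control array, and 0 of these were lincRNA probes. The reverse pattern, detection on every control array and no knockout array, was seen for 1 lincRNA probe and for 9 probes in all. Detection on the 4 day 7 arrays and none of day 9 was seen for 10 lincRNA probes in 10 regions (34 probes in all), and on the 4 day 9 arrays and none of day 7 for 3 lincRNA probes (31 in all).

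The first question was which lincRNA probes differed between Litchi knockout and control cells. On day 7, 4 of the 6250 were higher in the knockout and 6 were lower, which is 0.16% of them, against 0.247% of all 33189 probes tested, or 0.121% higher and 0.127% lower (limma, adjusted p under 0.05 by Benjamini-Hochberg over all probes). On day 9, 30 were higher and 192 lower, 3.55% against 4.29% of all probes, or 1.13% higher and 3.17% lower. With both days combined, so that 4 arrays stood against 4, 96 probes in 59 regions were higher and 556 probes in 426 regions were lower, 10.4% against 13.2%. In none of the 3 comparisons did the share of lincRNA probes called exceed that of the array. A probe that passed the filter through the 1 group where it is high had to differ from the others, so these counts are descriptions. Among the 4563 probes well above background on all 8 arrays, the same fit called 2 higher and 3 lower on day 7, 20 and 134 on day 9, and 74 and 417 over both days.

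The direction of the knockout calls leaned down among lincRNA probes. Over both days, 8.90% of them were called lower against 8.24% of all probes, and 1.54% were called higher against 4.95%. Their median change was -0.21 on the log2 scale, against -0.04 for all probes, and -0.09 against 0.01 after quantile normalization. That lean depended on how arrays were scaled to each other. The share of the calls that were higher was 14.7% over both days and 13.5% on day 9. It was 24.3% and 20.3% when arrays were shifted to a common median, and 36.2% and 32.7% after quantile normalization, which left more lower than higher calls each time. On day 7 the share of higher calls went from 40% to 57.1% under quantile normalization. Both strand letters were represented about alike over both days, with 46 F and 50 R probes higher and 260 F and 296 R probes lower.

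The counts rested heavily on single arrays. Without replicate 2 of the knockout on day 9, 0 lincRNA probes were called on day 9 and 53 over both days, and the range over the 8 fits that each left out 1 array was 0 to 113 on day 9, 53 to 483 over both days and 0 to 16 on day 7. On day 7 the count was 0 without replicate 2 of control or of knockout on that day, or without either knockout array of day 9. Day 9 calls numbered 11 without replicate 1 of the knockout on day 9 and 15 without replicate 1 of control on day 9.

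A rise in the knockout on both days was found at 1 place on chromosome 9. The probe of chr9:121845920-121858120 (F) read -1.65 and -1.71 on the control arrays of day 7 and -0.41 and -0.30 on the knockout arrays. On day 9 it read -2.63 and -2.61 in control and -0.62 and -0.88 in the knockout, so no knockout array overlapped a control array on either day. Here and below, probes were named for large called changes, so such a separation follows in part from that choice. The share of all probes separated in this way was not counted. The rise was 1.32 ± 0.14 on day 7 (log2 change ± SE from limma, adjusted p = 0.0362), 1.87 ± 0.14 on day 9 (adjusted p = 0.00864) and 1.60 ± 0.10 over both days (adjusted p = 0.00211). The same probe fell from day 7 to day 9 in control cells by 0.94 (adjusted p = 0.0208). An overlapping region, chr9:121846340-121848578 (F), behaved alike, with relative levels of -3.79 and -3.80 in control and -2.65 and -2.48 in the knockout on day 7, and -4.05 and -4.0 against -2.78 and -3.06 on day 9. Its rise over both days was 1.17 ± 0.11 (adjusted p = 0.0054), and on day 7 it was 1.23 ± 0.15 (adjusted p = 0.0459). That day 7 call ended with any 1 of the 8 arrays left out and with the replicate number as a block. For the first probe the call over both days held without each array, the day 9 call ended without replicate 2 of the knockout on day 9, and the day 7 call ended without any array of day 7 or of the knockout on day 9.

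A second region with a rise on both days was chr14:77511189-77522852 (F). Its probe read -5.18 and -5.20 in control cells on day 7, where 1 of the 2 arrays was well above background, and -3.99 and -3.90 in the knockout. On day 9 control cells read -5.79 and -5.91, both not well above background, against -4.14 and -4.11 in the knockout. Here too every knockout array lay above every control array. The fitted rise over both days, which takes the day 9 control readings as they stand, was 1.49 ± 0.09 (limma adjusted p = 0.00186) and held without each array. On day 7 it was 1.25 ± 0.13 (adjusted p = 0.0321), and on day 9 the level was at least 2.33-fold higher (limma adjusted p = 0.0076). The day 7 call ended under normexp background correction and without any array of day 7 or of the knockout on day 9, and the day 9 call ended without replicate 2 of the knockout on that day.

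Other lincRNA probes rose at 1 day or over both. The probe of chr9:68349343-68411643 (F) read -3.90, -3.58, -3.77 and -4.73 on the 4 control arrays and -2.18, -2.53, -2.28 and -2.18 on the 4 knockout arrays. Its rise was 2.02 ± 0.32 on day 9 (limma adjusted p = 0.0293) and 1.70 ± 0.23 over both days (adjusted p = 0.0126), and both calls ended without replicate 2 of the knockout on day 9, the first also without replicate 1. On chromosome 16, the probe of chr16:91187988-91188416 (R) had a fitted rise of 1.19 ± 0.15 over both days (adjusted p = 0.0113), which takes control readings at background as they stand, and its call held without each array, and read -4.92, -5.22, -6.14 and -6.25 in control, with 1 of these 4 arrays well above background, against -4.18, -4.05, -4.49 and -5.04 in the knockout.

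A rise on day 7 was called for a probe seen in that group alone. The probe of chr16:30170306-30223193 (F) was well above background on the 2 knockout arrays of day 7 alone, at -3.21 and -3.87. Control cells read -6.64 and -6.95 on day 7, and the day 9 arrays read -7.76 and -7.27 in control and -8.46 and -7.56 in the knockout. On day 7 the knockout was at least 4.05-fold above control (limma adjusted p = 0.0369). That call ended without any array of day 7 or of the knockout on day 9, and with the replicate number as a block. The probe entered the test through this 1 group, in which it is high. From day 7 to day 9 the level in the knockout fell by at least 4.84-fold (adjusted p = 0.00545), which held without each array. The difference between its knockout effects on the 2 days did not pass the test (limma adjusted p = 0.356), and its size is not given because 3 of the 4 groups were not well above background.

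Among probes that fell in the knockout, chr6:47595238-47601893 (R) did so on both days. It read -3.57 and -3.20 in control against -5.35 and -5.50 in the knockout on day 7, and -3.40 and -3.63 against -4.86 and -5.08 on day 9. The groups did not overlap on either day, and 1 of the 2 knockout arrays of day 7 was not well above background. The fall was -2.04 ± 0.18 on day 7 (limma adjusted p = 0.0204), -1.46 ± 0.18 on day 9 (adjusted p = 0.0206) and -1.75 ± 0.13 over both days (adjusted p = 0.00353), the last of which held without each array. Of the arrays of day 9, leaving out either knockout array ended the calls on both single days. Leaving out replicate 2 of control or either knockout array of day 7 ended the day 7 call, and leaving out replicate 1 of control on day 9 ended the day 9 call.

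The start of chromosome 16 held further probes that fell. The probe of chr16:3337275-3355950 (F) read -3.55, -3.28, -3.56 and -3.86 on the control arrays and -5.25, -4.88, -5.78 and -5.73 on the knockout arrays, with 1 of the last 2 well above background. Its fall was -1.65 ± 0.19 on day 7 (limma adjusted p = 0.0404), -2.05 ± 0.19 on day 9 (adjusted p = 0.0127) and -1.85 ± 0.14 over both days (adjusted p = 0.00346). The value over both days held its call without each array. The day 7 call ended under normexp background correction, with the replicate number as a block, and without any array of day 7 or of the knockout on day 9. The day 9 call ended without replicate 1 of control or either knockout array of day 9. The probe of chr16:3111550-3130500 (R) read -2.07, -1.83, -1.38 and -2.75 in control and -3.89, -4.32, -4.79 and -4.44 in the knockout, a fall of -2.35 ± 0.30 over both days (adjusted p = 0.012) that lost its call without replicate 2 of the knockout on day 9.

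The single lincRNA probe detected on all control arrays and no knockout array was that of chr3:51804655-51805883 (R). In control cells it read -4.11 and -4.17 on day 7 and -4.63 and -4.87 on day 9, and in the knockout -6.17 and -5.40, then -6.42 and -5.96. The probe was named for this pattern and entered the test through the control groups, where it is high, so its calls are descriptions. The fall over both days was called (limma adjusted p = 0.0122) and held without each array. Its size has no exact value because no knockout array was well above background. On day 9 the control level was at least 2.1-fold higher (adjusted p = 0.0451), a call that ended under 4 other ways of scaling or background correction, the deposited table included, and without any of the 4 day 9 arrays or either control array of day 7.

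Some of the probes called lower on day 9 were high on the control arrays of that day. The probe of chr15:90156889-90184564 (R) was well above background on the 2 control arrays of day 9, at -4.01 and -3.13, and on no other array, so that it entered the test through this 1 group. The other readings were -8.63 and -7.09 for control on day 7, -8.57 and -7.42 for the knockout on day 7, and -8.52 and -7.63 for the knockout on day 9. Its level on day 9 was at least 4.74-fold lower in the knockout (limma adjusted p = 0.0237), a call that ended without any array of day 9, and in control cells it was at least 3.96-fold higher on day 9 than on day 7 (adjusted p = 0.0201), a call that ended without either control array of day 7 or replicate 2 of control on day 9. The probe of chr5:144517700-144526071 (F) read -3.62 and -3.61 on the day 9 arrays of control cells. Those of the knockout, both not well above background, read -6.22 and -6.66, at least 4.5-fold lower (limma adjusted p = 0.0171). That call ended without replicate 1 of control or either knockout array of day 9. On day 7 it read -5.42 and -6.05 in control and -5.78 and -5.00 in the knockout. The difference between its knockout effects did not pass (adjusted p = 0.36).

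The 2 largest rises over both days belonged to probes whose control arrays read higher on day 9 than on day 7. The probe of chr1:85036677-85038530 (R) read -4.67 and -6.96 in control cells on day 7, -3.39 and -1.93 in control on day 9, -1.67 and -2.56 in the knockout on day 7 and -0.94 and -1.52 on day 9. Its difference over both days was 2.57 ± 0.57 (limma adjusted p = 0.0363). The probe of chr6:3333825-3349525 (R) followed the same order of groups, at -6.03 and -5.59, then -3.52 and -2.04, in control and -1.27 and -3.17, then -1.36 and -1.99, in the knockout, and its difference was 2.35 ± 0.50 (adjusted p = 0.0323). Another such probe, chr6:57583950-57624216 (F), rose by 1.62 ± 0.37 (adjusted p = 0.0387). On both days the knockout arrays of these 3 probes read above the control arrays, with a narrower gap on day 9, where replicate 2 of control read above replicate 1. Each of the 3 calls ended in at least 6 of the 8 fits that left out 1 array, including those without either knockout array of day 9. The call at chr6:57583950-57624216 also ended with the replicate number as a block.

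The interferon response genes had a similar order of levels on these arrays. On day 7 the control arrays had a summed relative level of 4.47 and 4.15 and the knockout arrays 7.11 and 7.03, and on day 9 the sums were 7.05 and 8.59 in control and 8.72 and 8.59 in the knockout. Cells switch on these 8 genes after sensing interferon or foreign nucleic acid. Of the 8 genes, 7 were called higher in the knockout over both days, with 0 called on either day alone. In control cells 8 were called higher on day 9 than on day 7. Their part in the lincRNA changes was not tested. A further probe of this order, chr6:3283191-3284581 (R), was at least 5.68-fold higher on day 9 than on day 7 in control cells (limma adjusted p = 0.0303), and that call ended under normexp background correction and without either control array of day 7, replicate 2 of control on day 9 or either knockout array of day 9.

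The second question was how lincRNA probes changed from day 7 to day 9. In control cells 79 rose, in 56 regions, and 150 fell, in 114 regions, which is 3.66% of the lincRNA probes against 6.13% of all probes tested. In knockout cells 113 rose, in 72 regions, and 319 fell, in 269 regions, 6.91% against 7.55%. Most calls among lincRNA probes were falls, while over the array rises and falls were called at 3.6% and 2.52% in control and 3.82% and 3.73% in the knockout. The median lincRNA change was -0.14 in control and -0.19 in the knockout, and that of all probes was -0.11 in both. After quantile normalization these medians were -0.10 in control and -0.08 in the knockout, against -0.05 and -0.03 for all probes, so the order of the genotypes depended on the scaling. Of the calls in knockout cells 26.2% were rises, and 37.3% after quantile normalization.

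Some calls recurred between the genotypes. The 2 comparisons share no array, but the fit used 1 estimate of the spread per probe for both. The overlap among all kept probes was not counted, so the shares below are descriptions. Of the probes that rose, 44 did so in both, which is 55.7% of the control list and 38.9% of the knockout list. Of those that fell, 83 did so in both, 55.3% of the control list and 26.0% of the knockout list. Single arrays weighed on these counts as well. In control cells 2 calls were left without replicate 2 of day 7 and 11 without replicate 2 of day 9, and in knockout cells 91 and 92 were left without replicate 2 of day 7 or of day 9, and 128 without replicate 1 of day 9.

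A fall with the day in both genotypes and on both strands was seen at chr3:87757295-87774970. Its F probe read 3.89 and 4.59 in control and 4.58 and 4.82 in the knockout on day 7, and 1.34 and 1.11 in control and 1.51 and 2.10 in the knockout on day 9. All 4 day 7 arrays were above all 4 day 9 arrays. The fall was -3.01 ± 0.29 in control (limma adjusted p = 0.00869) and -2.90 ± 0.29 in the knockout (adjusted p = 0.00691), and the first of these lost its call without replicate 2 of control on day 7. On the R strand of the same region, 1 probe went from -2.17 and -1.81 to -4.27 and -5.25 in control, a change of -2.77 ± 0.35 (adjusted p = 0.0137), and from -1.73 and -1.70 to -4.23 and -3.61 in the knockout, a change of -2.21 ± 0.35 (adjusted p = 0.0184). The control call of this R probe ended without replicate 2 of control on either day, and its knockout call without any of the 4 knockout arrays.

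Other probes fell from a clear signal to background. The probe of chr8:60132300-60146830 (R) read -3.44 and -2.22 in control and -3.36 and -2.78 in the knockout on day 7, and was not well above background on any day 9 array, at -5.44, -7.15, -6.47 and -6.43. It was at least 5.4-fold lower on day 9 in control (limma adjusted p = 0.0291) and at least 6.69-fold lower in the knockout (adjusted p = 0.026). The probe of chr8:73663222-73695355 (F) was at least 3.28-fold lower on day 9 in the knockout (adjusted p = 0.00691), from -4.23 and -3.97 to -7.80 and -7.31, and this held without each array. The control arrays of that probe read -3.66 and -3.48 on day 7 and -4.53 and -5.55 on day 9. The first probe's control call ended without replicate 2 of control on either day or without either knockout array of day 9, and its knockout call ended without any of the 4 knockout arrays. Both probes entered the test through day 7 arrays, on which they are high, so these calls are descriptions.

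Among probes that rose with the day, chr8:37582157-37582802 (F) was called in both genotypes. It read -6.82 and -6.55 in control and -6.97 and -7.13 in the knockout on day 7, all not well above background, and -4.39, -4.19, -4.38 and -4.47 on the 4 day 9 arrays. It entered the test through day 9 arrays, on which it is high, so its calls are descriptions. It was at least 2.41-fold higher in control (limma adjusted p = 0.00594) and at least 2.47-fold higher in the knockout (adjusted p = 0.00433), and both calls held without each array. Another F probe of the region, which entered the same way, was at least 2.0-fold higher in control (adjusted p = 0.0208) and at least 1.18-fold higher in the knockout (adjusted p = 0.0218). Its control call ended without any of the 4 control arrays, and its knockout call without replicate 1 of the knockout on day 7 or either knockout array of day 9, and under normexp. The probe of chr2:33496712-33501183 (F) went from -7.97 and -6.60 to -3.54 and -2.87 in control, at least 5.09-fold (adjusted p = 0.01), and from -6.92 and -7.26 to -4.04 and -4.36 in the knockout, at least 2.88-fold (adjusted p = 0.0176). This probe too entered the test through day 9 arrays. Its control call ended without replicate 2 of control on day 9 and its knockout call without any of the 4 knockout arrays. An overlapping region, chr2:33500594-33501874 (F), rose by 3.03 ± 0.45 in control (adjusted p = 0.0197) and 3.21 ± 0.45 in the knockout (adjusted p = 0.0123). These calls ended without either control array of day 7 or replicate 2 of control on day 9, and without replicate 1 of the knockout on day 9 or replicate 2 of the knockout on day 7.

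A rise in both genotypes could go with a lower level in the knockout on day 9. The probe of chr5:52998788-53010250 (R) read -3.09 and -3.29 in control and -3.45 and -3.48 in the knockout on day 7, and -0.83 and -0.81 against -1.78 and -2.26 on day 9. It rose by 2.37 ± 0.19 in control (limma adjusted p = 0.0069) and by 1.44 ± 0.19 in the knockout (adjusted p = 0.01), and each call ended without replicate 2 of its own genotype on day 7. On day 9 it was lower in the knockout by -1.20 ± 0.19 (adjusted p = 0.0291), a call that ended in 6 of the 8 fits, those without any array of day 9 or either knockout array of day 7. The probe of chr7:86680928-86700632 (F) entered the test through the knockout arrays of day 9. In the knockout it was at least 4.72-fold higher on day 9 than on day 7 (limma adjusted p = 0.0136), at -7.24 and -7.34 on day 7 and -3.37 and -3.60 on day 9. Control cells read -8.56 and -7.01 on day 7 and -5.95 and -4.79 on day 9, with 1 of the last 2 arrays well above background, and that change was not called (adjusted p = 0.0545). The difference between genotypes did not pass either. That knockout call ended without either knockout array of day 9 or replicate 2 of the knockout on day 7.

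Whether the knockout effect itself differed between the days was tested directly. No lincRNA probe passed (0 of 6250, and 0% of all 33189 probes, limma, adjusted p under 0.05), while at an unadjusted p under 0.05 there were 151 with a more positive and 251 with a more negative knockout effect on day 9. The lowest p among the more positive ones belonged to chr2:78761468-78772543 (R), with a difference of 1.34 ± 0.18 and an adjusted p of 0.356. It read -4.52 and -4.52 in control and -5.45 and -5.49 in the knockout on day 7, and -3.97 and -4.11 against -3.59 and -3.71 on day 9. Another R probe of the region went the other way on day 9 and was called lower in the knockout, by -1.51 ± 0.23 (limma adjusted p = 0.0261). Among the more negative ones the lowest p belonged to chr4:3169583-3180017 (F), with an adjusted p of 0.356 as well. It read -5.49 and -5.15 in control and -4.74 and -4.74 in the knockout on day 7, and -4.96 and -5.14 against -6.40 and -6.90 on day 9, where the knockout arrays were not well above background. An effect called on 1 day and not on the other is therefore not shown to differ between the days.

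Strands were compared next. Of the 3396 regions, 1013 were probed on both strands, 1206 on F alone and 1177 on R alone. Where both were probed, 562 regions had a kept probe on each strand, 160 on F only, 201 on R only and 90 on neither. The letters are those in the probe names, and which strand of a transcript they stand for is not given in the sources used here. For the 562 regions, the mean of the kept F probes minus the mean of the kept R probes was formed on each array and its change tested with limma over the 562 regions. Readings not well above background entered as they stand, so a strand difference is a fitted value and not exact where a strand is dim.

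The strands of a region had the same sign of change in most regions, but their changes were weakly correlated. Over both days of the knockout comparison the mean changes of F and R had the same sign in 74.4% of the 562 regions. From day 7 to day 9 the share was 61.2% in control and 65.8% in the knockout. These strand means average the kept probes of a strand. For single probes on opposite strands of a region the shares were 69.0%, 59.5% and 61.1% in these 3 comparisons. Pairs of single probes on different chromosomes, the like measure to set beside them, had the same sign in 61.8%, 54.8% and 56.7%. The Pearson correlation of the F and R means was 0.32, 0.19 and 0.10. In the knockout comparison over both days, 0 regions had a called strand difference (0% of those tested), with 90 at an unadjusted p under 0.05 and a lowest adjusted p of 0.0963. On day 7 and on day 9 alone it was also 0, with 56 and 71 at an unadjusted p under 0.05. Over both days the count was 10 with normexp background correction. It was 29 of 394 regions when only probes well above background on all 8 arrays were used. Both strands carried a probe called lower in 17 regions and a probe called higher in 0. In 3 regions the called strands were opposite, and in 154 regions 1 strand had a call and the other had none.

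Between day 7 and day 9 the strands parted in some regions. In control cells 1 region was called (0.178% of the 562) and in knockout cells 26 (4.63%). The 26 differences ran from 0.95 to 3.75 on the log2 scale, F changed upward relative to R in 11 and downward in 15, and the mean changes of the strands had opposite signs in 19. Control cells had a strand difference of the same sign in 24 of the 26, and 0 of the 562 passed a test of the difference between genotypes, with 36 at an unadjusted p under 0.05. Leaving out 1 array gave 2 to 19 regions in knockout cells, the lowest without replicate 2 of the knockout on day 7, followed by 3 without replicate 2 of the knockout on day 9. For control cells the range was 0 to 3. With only probes well above background on all 8 arrays, 29 of 394 regions were called in knockout cells, 11 of the 26 among them.

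The region chr6:31233512-31241062 was the 1 called in control cells and was called in the knockout too. Its F probe passed the filter through the day 9 groups and read -5.88 and -6.82 in control on day 7 and -4.73 and -4.27 on day 9, and in the knockout -6.61 and -6.30, then -4.23 and -4.82. Its R probe went the other way, from -3.59 and -3.72 to -4.40 and -4.37 in control and from -4.06 and -3.73 to -5.29 and -6.12 in the knockout. The fitted change of F relative to R was 2.58 ± 0.32 in control (limma adjusted p = 0.0435) and 3.74 ± 0.32 in the knockout (adjusted p = 0.00193). The control call ended under the replicate block, without a filter on dim probes and in each fit without 1 array, other than that without replicate 1 of control on day 7.

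Chromosome 8 held 4 of the 26 regions and 455 of the 6250 kept lincRNA probes, and a concentration there was not tested. At chr8:93337794-93348869 the F probe of knockout cells read -2.77 and -2.56 on day 7 and -3.88 and -4.05 on day 9, while the mean of 3 R probes went from -6.39 and -6.38 to -3.84 and -4.63. The fitted strand difference was -3.44 ± 0.29 in the knockout (limma adjusted p = 0.00193) and -1.45 ± 0.29 in control, where it did not pass (adjusted p = 0.114). The difference between the genotypes did not pass either (adjusted p = 0.394). On the knockout arrays of day 7 the R mean lay below the lowest level that counted as well above background (-6.28 and -5.17). The R probes read higher on day 9, so the size is not exact and the call is a description. In the region chr8:60132300-60146830, whose R probe fell to background with the day, the mean of 3 F probes changed by 0.27 in control and 0.37 in the knockout with no F probe called. The strand difference was called in the knockout (limma adjusted p = 0.0228) and not in control (adjusted p = 0.0996), but the genotypes did not differ in it (adjusted p = 0.996). The size of the strand difference has no exact value because the R probe was not well above background on any day 9 array. At chr8:124355710-124401160 the F probe fell by 3.28 in the knockout, while the mean of 5 R probes changed by -0.13 with 0 of the 5 called. The reverse held at chr4:124127144-124334840, where 4 of 5 R probes rose in the knockout, by 2.41 on average over the 5, and 0 of 2 F probes were called. The fitted strand difference was -2.77 ± 0.50 (limma adjusted p = 0.0322). For the mean of these R probes on day 7, replicate 2 of the knockout read below its array's lowest level well above background. The same held for the F probe of chr8:124355710-124401160 on day 9, so both sizes are fitted values.

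Neighbouring probes were compared by their distance. Probes that share a region and a strand were the most alike, with the same sign of the knockout effect over both days in 78.1% of 6665 pairs, against 69.0% of 4299 pairs on opposite strands of a region. The share was 69.9% for probes of other regions that overlap, 60.7% for those up to 1 kb apart (313 pairs), 73.6% between 1 and 10 kb, 70.9% between 10 and 100 kb and 61.8% between 100 kb and 1 Mb. It was also 61.8% over all pairs on different chromosomes, the value beside which the others can be read. The pairs share probes and arrays, and these shares are descriptions with no test.

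For the day, pairs of 1 region had lower shares than for the knockout effect. In control cells the same sign was found in 70.5% of pairs of a region and strand, 59.5% of pairs on opposite strands, 55.5% of pairs 10 to 100 kb apart and 54.8% of pairs on different chromosomes. In knockout cells these shares were 71.8%, 61.1%, 58.7% and 56.7%. The Pearson correlation of the changes in pairs of 1 region and strand was 0.56 for the knockout effect, 0.48 for the day in control and 0.49 for the day in the knockout. On opposite strands of a region it was 0.23, 0.20 and 0.17.

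Probes of 1 region and strand did not always change together. Of the 929 region strands with at least 3 kept probes, all kept probes had the same sign of the knockout effect over both days in 592. In 220 at least 1 was called, and in 30 all were. For the day, all kept probes were called in 6 region strands in control and 8 in the knockout, with at least 1 call in 87 and 148.

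Regions within 10 kb of each other, on either strand, were then joined into 1891 stretches, of which 1467 held a kept probe. Over both days of the knockout comparison 12 stretches had at least 3 probes called higher and 44 had at least 3 called lower. With the day, 9 stretches had at least 3 probes called higher and 10 lower in control, and 13 and 11 in the knockout. Joining at 1 kb or 50 kb gave 45 and 47 stretches with falls in the knockout, and 12 with rises at both distances.

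On chromosome 6, the stretch 47595238 to 47728525 held 18 kept probes of 6 regions, 9 on each strand. All 18 had a negative knockout effect over both days, and 9 of them, 3 F and 6 R, were called lower. The mean of the 18 was -2.05 and -1.84 on the control arrays of day 7 and -2.83 and -2.81 on the knockout arrays, and -1.83 and -2.04 against -2.74 and -2.88 on day 9. Neither day showed an overlap of the groups. Here and below, stretches were named for their number of called probes, so shared signs and separated groups within them are descriptions. Over all 6250 kept lincRNA probes the upper quartile of the knockout effect over both days was 0.006, so most probes had a negative effect. At chr2:32950586-32986870, 9 of 9 kept probes had a negative effect and 8 were called lower, with changes from -1.43 to -0.53. The 5 kept F probes at chr16:40307070-40318856 were all called lower over both days, and of 6 kept R probes at chrX:135880775-135892277 5 were called lower on day 9 and 5 over both days.

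Rises in the knockout were found in runs too. At chr9:121845920-121858120, where the largest probe changes are given above, 7 of 8 kept F probes were higher over both days and 4 were called. The mean of the 8 was -3.18 and -3.11 in control against -2.35 and -2.07 in the knockout on day 7, and -3.63 and -3.74 against -2.50 and -2.89 on day 9. At chr14:77511189-77522852 all 5 kept F probes were called higher over both days, with changes from 0.83 to 1.49 (limma adjusted p from 0.00186 to 0.0254), and the mean of the 5 was -3.98, -4.34, -4.22 and -4.25 on the control arrays and -2.93, -3.03, -2.99 and -3.28 on the knockout arrays. The R strand of that region gave no kept probe. Another run, chr4:146507925-146532650, had 5 of 5 kept R probes called higher over both days by 0.40 to 0.50, and 3 of them fell with the day in control cells.

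The days also set off whole stretches. At chr3:87757295-87774970, 7 of 9 kept probes fell in control and 7 in the knockout, and the mean of the 9 went from 1.47 and 2.03 to -0.40 and -0.64 in control and from 1.85 and 2.22 to -0.32 and 0.28 in the knockout. At chr2:33496712-33501874 all 6 kept F probes had a positive change in both genotypes, with 5 called in control and 3 in the knockout. Of 12 kept probes at chr8:67542714-67561694, 4 rose in control and 8 in the knockout, and of 11 kept F probes at chr9:27148989-27156100, 6 rose in control and 8 in the knockout. Stretches with changes on 1 strand included chr16:46384974-46391331, where 5 of 5 kept R probes rose in both genotypes and the 1 kept F probe was not called. The stretch chr17:15100982-15147002 changed with both genotype and day. Its 4 kept R probes were higher in the knockout on day 9 and over both days and fell with the day in both genotypes, and its 2 kept F probes were called in none of these comparisons.

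Probes called over both days were found on every chromosome with kept lincRNA probes, but calls could lie close together. On chromosome 16, F probes called lower on day 9 lay at chr16:40267386-40268181, chr16:40283097-40284822, chr16:40307070-40308718, chr16:40312038-40315564 and chr16:40471828-40472481. Others called lower on day 9 lay at chr16:3111550-3130500 (R) and chr16:3337275-3355950 (F). The part of such neighbours in the shares below was not counted. The share of kept lincRNA probes called over both days of the knockout comparison ran from 5.96% on chromosome 13 to 18.5% on chromosome 16, where 37 of 248 were lower and 9 higher, and was 14.9% on the X chromosome. For the day in knockout cells it ran from 2.81% on the X chromosome to 16.5% on chromosome 9. On chromosome 18 there were 211 kept probes, of which 23 were lower and 2 higher over both days. These shares were not tested between chromosomes.

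Named long noncoding RNAs give a comparison with known transcripts. Of 70 listed, 19 were found by name and 15 measured, while Xist, Dlx6os1, Dlx1as and Firre were not well above background on any array. The imprinted transcript Meg3 rose in the knockout by 2.25 ± 0.15 over both days (limma adjusted p = 0.00269), and Mirg, a microRNA host of the same imprinted locus, by 1.55 (adjusted p = 0.00625). Norad, which binds Pumilio proteins, fell by 0.43 (adjusted p = 0.0333). With the day, Mir124-2hg, a host of the neuronal microRNA miR-124, fell by 1.76 in control (adjusted p = 0.00785) and by 1.60 in the knockout (adjusted p = 0.007). The snoRNA host Snhg17 fell by 1.08 in control (adjusted p = 0.045) and by 1.25 in the knockout (adjusted p = 0.0265). In all, 4 of the 15 were called lower with the day in control and 3 in the knockout, against 2.52% and 3.73% of all probes. None of the 15 was called higher in either, against 3.6% and 3.82% of all probes. The median change of the list was -0.41 and -0.32 against -0.11 for all probes in both. The list is short and was chosen by name, and its counts were not tested against those shares. These named transcripts were not refitted without single arrays.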

How the data were processed

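RNA from 8 motor neuron samples was hybridised to 1-colour Agilent arrays, 2 per group, on 1 slide scanned at 1 time. Per the submitters' processing notes, the scans were quantified in Agilent Feature Extraction 10.5.1. Its processed signal is an intensity per spot, from which the background was subtracted within the array, with nothing done between arrays, per the file headers. A second source, log2 values of these arrays in a table from the authors, had a median of 5.81 in each of its 8 columns and a correlation with the processed signal of the same array of 0.998 or more across probes. The baseline of that deposited table stays unknown, and it served as an alternative.

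The 3671 control spots and the 104 to 166 outlier spots per array were left out, 0 spots were saturated, and spots of 1 probe were averaged. Values were log2 intensity minus the array's 75th percentile. All 33189 probes kept on the array entered 1 fit of 4 group means with limma 3.58.1 under R 4.3.3 (two-sided; lmFit, then eBayes; 4 residual and 2.59 prior degrees of freedom), with Benjamini-Hochberg adjustment over all of them. The number of arrays limits the precision. Where neither array of a group was well above background for a probe, its fold is a bound ("at least"), taken between the mean of the bright group and a floor for the dim group, which is the mean over arrays of the lowest signal well above background or the probe's own signal, whichever was higher. For 3 kept lincRNA probes a value was missing on an array, and the fit used the others.

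The lincRNA probes, gene lists and rules were chosen with earlier results of these data known. Named were, per comparison, up to 8 called probes with the largest rise and 8 with the largest fall that changed the same way in both replicate numbers, 1 per region and strand, none on chromosome 18; up to 4 each way for the difference between the days; up to 5 regions with a strand difference; and up to 6 stretches per direction with at least 3 called probes. The text gives those on which a result turns. The normexp correction was run on median signals with an offset of 50, a choice made after seeing the data in place of the planned mean signals. Alternatives were 3 other scalings or sources of values, normexp, 2 other filters, 1 probe per name, a replicate block, and leaving out each array, where the lone array left in a group is assumed to vary like the other groups.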

Additional observations from a re-analysis of the deposited data

Results flagged for a closer look

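Signal was seen in position-named probes outside the comparisons, those with no strand letter. On chromosome 17, in the region chr17:12941161-12944859, 5 of 5 such probes were well above background on both arrays of a group. Their knockout effect over both days ran from 0.44 to 0.83 with a median of 0.73 on the log2 scale, and 1 of the 5 was called (limma, adjusted p under 0.05). On chromosome 3, in the region chr3:34856791-34869544, 3 of 3 passed, with a median knockout effect of 0.11 over both days and a median change with the day of -0.54 in control, and 0 were called in these comparisons. On chromosome 6, in chr6:52032838-52033444, 0 of 5 passed.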

How the results depend on the processing

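No called change of a named probe changed sign under the alternatives run. The balance of higher and lower calls did: on day 7 it went from 4 and 6 to 4 and 3 under quantile normalization and in the deposited table and to 17 and 11 under normexp, and for the day in control from 79 and 150 to 7 and 4 without replicate 2 of control on day 9 and to 2 and 0 without replicate 2 of control on day 7. Under quantile normalization 172 were higher and 303 lower over both days, and 50 and 103 on day 9. With normexp, lincRNA probes called for the knockout on day 7 numbered 28, and strand differences 10 for the knockout over both days and 16 for the day in control. Without a filter on dim probes, 0 lincRNA probes were called on day 7, day 9 and with the day in either genotype, 9 were called over both days, and 0 strand differences were called for the day in either genotype. With only probes well above background on all 8 arrays, 4563 lincRNA probes and 394 strand regions were fitted. Of these, 25 probes were called on day 7 and 29 strand differences over both days. With 1 probe per name, 2907 lincRNA probes were fitted in place of 6250, so lower counts do not mean lower shares. The counts were 3 on day 7, 357 over both days, and 121 and 251 with the day in control and knockout. Strand differences with the day then numbered 6 in control and 52 in the knockout, over 562 regions. The causes were not tested. Other total counts under alternatives that keep all 8 arrays stayed within 1.5 times the reported total, apart from the 1 strand difference in control, which was lost under the block.

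Same-numbered arrays of different groups deviated together in some pairs of groups and not in others (correlations of their deviations from -0.15 to 0.33), so the numbers were not taken to pair the samples. With the replicate number as a block, 8, 325 and 879 lincRNA probes were called for the knockout on day 7, day 9 and over both days, 250 and 487 with the day, and 0 for the difference between days, with 0, 0 and 36 strand differences over both days and with the day in control and knockout. The split of the knockout calls moved with scaling, as given with the counts, and with normexp 33.5% of the calls over both days were higher.

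Leaving out 1 array gave 0 to 16 calls on day 7, 0 to 113 on day 9, 53 to 483 over both days, 2 to 208 and 91 to 396 with the day in control and knockout, 0 to 0 for the difference between days, and 0 to 3, 0 to 3 and 2 to 19 strand differences over both days and with the day in control and knockout. Of the 118 called changes of named probes, 16 held without each array and 5 in no such fit. The array whose removal ended most of them was replicate 2 of the knockout on day 9, with 87, followed by replicate 1 with 77. Of the 118, the deposited table and quantile normalization each ended 14, the median shift 1, normexp 37, the block 15 and the absence of a filter 114. Normexp values were smaller by over 1.5 times for 99 of the 118, with a median ratio of 2.95. The offset of 50 units in that correction shrinks the log2 changes of dim probes by itself, and its share in this was not tested.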
